A study of Arabidopsis thaliana with 4 samples.

Results

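The genes described here are 36 Arabidopsis loci of 2 auxin response families, namely 29 Aux/IAA genes and 7 GH3 genes whose enzymes conjugate auxin to amino acids. They were taken as a list of locus numbers, by family and not by a threshold on these values. A probe was matched to 33 of them (26 Aux/IAA and all 7 GH3), out of 25410 loci tested on the arrays. *IAA9*, *IAA15* and *IAA32* were not analysed here. RNA came from whole seedlings labelled as 12 days after germination under continuous light. All samples are listed with the same medium (with sucrose and MES), cold stratification and growth temperature. The methods describe late germination of *bli-1*, with earlier sowing where genotypes were compared directly, but the array protocol does not repeat this, so a difference in developmental stage was not tested. The *bli-1* seedlings carry a T-DNA insertion in *BLISTER* (*BLI*; line SAIL_107_D04), and the wild type was Columbia-0 (Col-0). There were 2 arrays of *bli-1* and 2 of Col-0, each from a replicate of its own. The mutant was represented by this 1 insertion line. In whole seedlings, fewer cells of a type and less RNA per cell cannot be told apart. The question put to these genes was whether the transcript readout of auxin response differed between the genotypes.

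Auxin acts by bringing an F-box receptor of the TIR1/AFB family together with an Aux/IAA repressor, which is then degraded. This frees ARF transcription factors, which switch on early auxin genes. Many *Aux/IAA* and *GH3* genes are themselves among the targets, so their transcripts are widely used as a readout of auxin response and form a negative feedback: new Aux/IAA proteins restore repression, and GH3 enzymes lower the pool of free auxin by joining it to amino acids.

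Values are log2 intensities after background correction and quantile normalization. A log2 fold change is the *bli-1* mean minus the Col-0 mean and is given with its standard error (SE) from the fit of limma across all genes, and p-values are two-sided. A gene was called at a Benjamini-Hochberg adjusted p below 0.05 with at least a 1.5-fold change. With 2 arrays per genotype, the smallest p of an exact permutation test for a single gene is 0.333. Levels are not compared between genes, since probes differ in brightness.

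The arrays differed at the dim end. On the array of *bli-1* replicate 2, 91.7% of gene spots were well above background, against 74.7% to 77.4% on the other 3 arrays, and its negative control spots had a median intensity of 46.5, against 19 to 20. The array of *bli-1* replicate 1 lay on another slide than the other 3, so slide and *bli-1* replicate cannot be told apart. *BLI* itself was at 7.38 and 7.68 log2 units in *bli-1*, against 9.17 and 8.99 in Col-0 (log2 fold change −1.55, adjusted p = 0.0823 from limma). Its 2 probes gave −0.42 and −2.67. Between the replicates, 12 markers of root tissue behaved unevenly. Relative to the Col-0 mean, their median was 0.01 in *bli-1* replicate 1 and −0.90 in *bli-1* replicate 2 on the log2 scale, and all 12 were well above background on all 4 arrays. Not all followed the median. *WOX5* was higher on *bli-1* replicate 2 (6.75 and 7.81), and *SHR* (10.06 and 10.04) and *PLT1* (6.53 and 6.41) hardly moved. *NRT2.1* was low on both *bli-1* arrays (6.61 and 6.55, against 8.09 and 7.06 in Col-0). The part of the root markers in the results below was not tested.

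No member of either family was called (0 of 33 higher and 0 of 33 lower; lowest adjusted p = 0.223 from limma), where 0.134% of all loci were (0.11% higher and 0.0236% lower). At an unadjusted p below 0.05 with the same minimum fold change, 3 members were higher in *bli-1* and 0 lower. This is 9.09% of the 33, against 5.99% of all loci (3.01% higher and 2.98% lower). The 3 were *IAA6*, *IAA19* and *IAA29*. Adding *IAA34*, 4 members had at least a 1.5-fold higher fitted level, against 4.93% of all loci, and 0 were lower by that much, against 3.83%. Both *bli-1* arrays lay above both Col-0 arrays for 10 members and below them for 9, and the genotypes overlapped for 14. Over all loci, 22.8% lay apart with *bli-1* higher and 24.1% with *bli-1* lower. The difference between genotypes exceeded the gap between the replicates of either genotype for 10 members (30.3%), against 31.2% of all loci. The log2 fold change was above 0 for 18 of the 33 members, against 49.3% of all loci, with a median of 0.06 over the members and 0.00 over all loci.

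**Figure D1:**
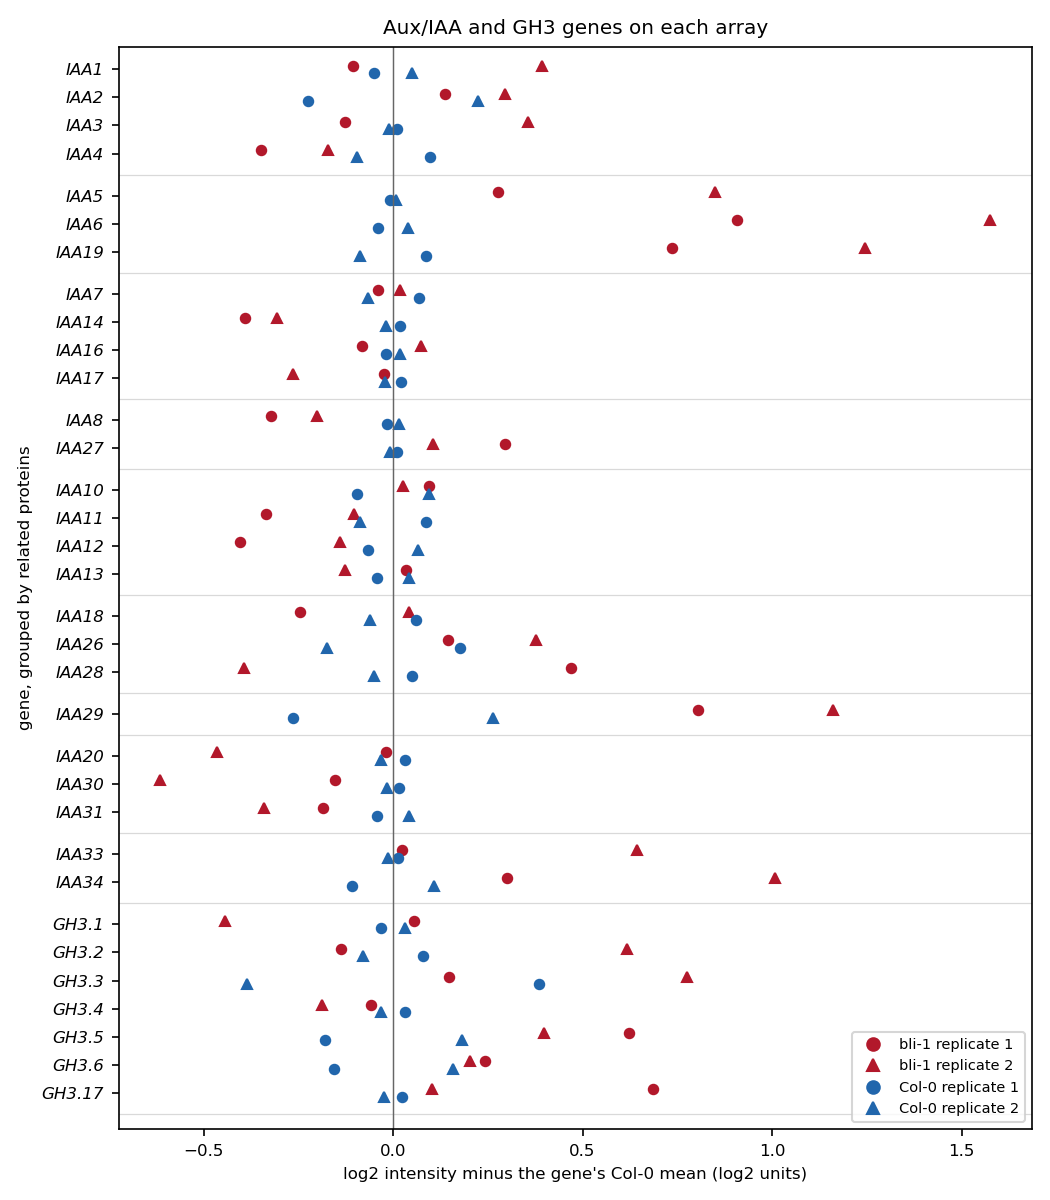
Normalized log2 intensity of each of the 33 genes on each array, minus the mean of the gene's 2 Col-0 arrays, with related proteins grouped (*bli-1* in red, Col-0 in blue, circles for replicate 1 and triangles for replicate 2). *IAA6*, *IAA19* and *IAA29* stand furthest to the right on both *bli-1* arrays, and most other genes lie within 0.5 log2 units of the Col-0 mean on *bli-1* replicate 1.

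The largest difference was that of *IAA6*, which with *IAA5* and *IAA19* encodes a group of closely related repressors. IAA19 is known from dominant mutants that fail to bend their hypocotyls toward light or against gravity. *IAA6* (AT1G52830) was at 8.77 and 9.44 log2 units on the *bli-1* arrays, against 7.82 and 7.90 on the Col-0 arrays. The genotypes did not overlap, and the gap between the *bli-1* replicates (0.67) was smaller than the difference between genotypes. The log2 fold change was 1.24 (SE 0.25, 95% confidence interval 0.60 to 1.89, adjusted p = 0.223 from limma), a 2.37-fold higher level. Before any normalization, the intensity of its spot was 429 and 833 in *bli-1*, against 126 and 178 in Col-0, on arrays whose gene spots had median intensities of 208 and 319 in *bli-1* and 139.5 and 187 in Col-0.

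*IAA19* (AT3G15540) was at 9.54 and 10.05 log2 units in *bli-1*, against 8.89 and 8.72 in Col-0. Again both mutant arrays were above both wild-type arrays, and *bli-1* replicate 2 was the higher of the pair. The log2 fold change was 0.99 (SE 0.21, interval 0.44 to 1.54, adjusted p = 0.247 from limma). *IAA5* (AT1G15580), the third of these relatives, was at 8.58 and 9.15 in *bli-1*, against 8.29 and 8.31 in Col-0. It did not overlap either, but the gap of 0.57 between the *bli-1* replicates was no smaller than the difference between genotypes (log2 fold change 0.56, SE 0.22, interval −0.01 to 1.14, adjusted p = 0.502 from limma). Without *bli-1* replicate 2, *IAA5* differed by 0.29 and *IAA19* by 0.75.

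*IAA29* (AT4G32280) encodes a repressor outside this group and is known as a gene that responds to shade and warmth through PIF transcription factors. Its log2 intensity was 8.26 and 8.61 in *bli-1*, against 7.19 and 7.72 in Col-0. The genotypes did not overlap, although here the Col-0 arrays were further apart (0.53) than the *bli-1* arrays (0.36). The log2 fold change was 0.98 (SE 0.24, interval 0.36 to 1.60, adjusted p = 0.288 from limma). Without Col-0 replicate 1 it was 0.76 and no longer passed the unadjusted threshold, and without *bli-1* replicate 2 it was 0.87 and did not pass it either.

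**Figure D2:**
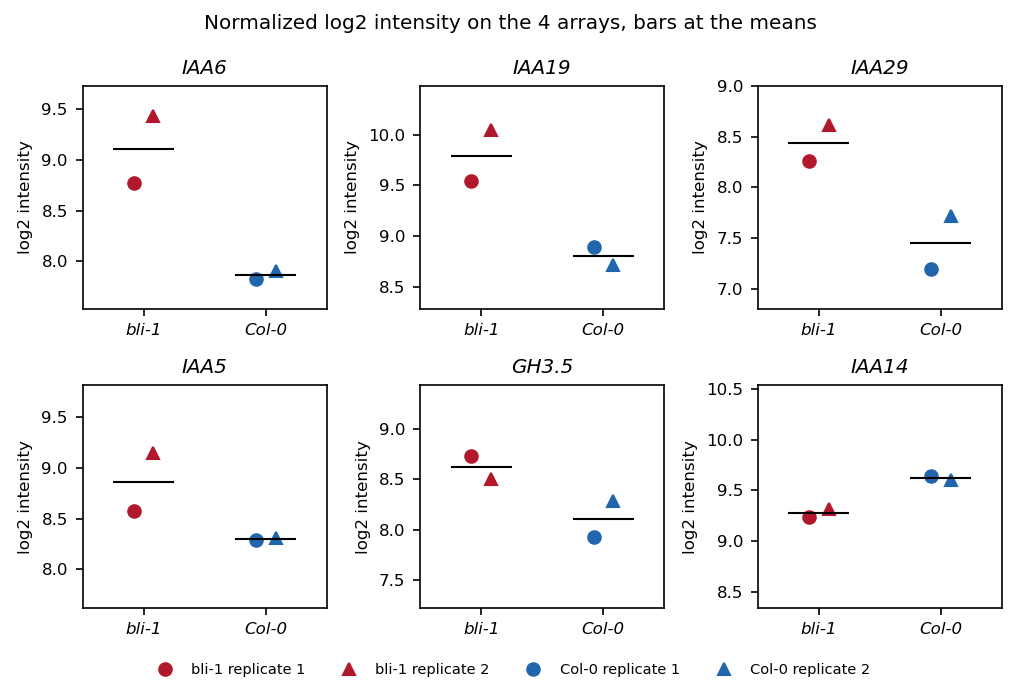
Normalized log2 intensity of 6 genes on the 2 *bli-1* arrays (left, red) and the 2 Col-0 arrays (right, blue), each axis spanning the same number of log2 units, with bars at the genotype means. *IAA6*, *IAA19* and *IAA29* are about 1 log2 unit higher in *bli-1*, *IAA5* and *GH3.5* about 0.5 higher, and *IAA14* 0.35 lower with replicates close together.

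The group of *IAA1* to *IAA4*, early auxin genes, held values near 0. *IAA1*, *IAA2* and *IAA3* overlapped between genotypes, with log2 fold changes of 0.14, 0.22 and 0.11. For *IAA1*, *bli-1* replicate 2 (10.24 log2 units) was above both Col-0 arrays (9.79 and 9.89) and replicate 1 (9.74) below them. *IAA3*, known as SHORT HYPOCOTYL 2 and as a regulator of root meristem size, showed the same arrangement, with 9.47 and 9.95 in *bli-1* against 9.61 and 9.58 in Col-0. *IAA4* was lower on both *bli-1* arrays (9.62 and 9.80, against 10.07 and 9.87 in Col-0), by 0.26 with an SE of 0.15, and both of its probes gave this sign (−0.23 and −0.29).

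In the group of *IAA7*, *IAA14*, *IAA16* and *IAA17*, whose stabilized forms cause strong auxin resistance, *IAA14* was the 1 gene whose difference exceeded the replicate gap in both genotypes. *IAA14* (AT4G14550), known as SOLITARY-ROOT for its block of lateral root formation when stabilized, was at 9.24 and 9.32 log2 units in *bli-1*, against 9.64 and 9.61 in Col-0. The replicates lay close together, with a gap of 0.08 in *bli-1*, and the genotypes did not overlap. The log2 fold change was −0.35 (SE 0.12, interval −0.67 to −0.03, unadjusted p = 0.038 and adjusted p = 0.453 from limma), short of a 1.5-fold change. Its 2 probes gave −0.32 and −0.37, and the value stayed between −0.39 and −0.30 over the 16 alternatives.

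*IAA16* was at 13.00 and 13.15 in *bli-1*, against 13.06 and 13.09 in Col-0, a difference of 0.00 (interval −0.34 to 0.33). *IAA17* was lower on both *bli-1* arrays (10.41 and 10.17, against 10.46 and 10.42 in Col-0), by 0.15, though *bli-1* replicate 1 differed from the lower Col-0 array by less than the Col-0 gap. The 2 probes of *IAA7* disagreed in sign (−0.29 and 0.26), and their mean did not differ between genotypes beyond the replicates (−0.01, interval −0.35 to 0.32). Some of these genes are near neighbours on their chromosomes. *IAA3* and *IAA17*, *IAA2* and *IAA7*, and *IAA1* and *IAA14* each have 1 gene between them in the RefSeq annotation, and within these pairs the values of 0.11 and −0.15, 0.22 and −0.01, and 0.14 and −0.35 did not run together.

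*IAA8* and *IAA27* belong to a group of longer Aux/IAA proteins. *IAA8* was lower on both *bli-1* arrays, at 14.16 and 14.29 against 14.47 and 14.50 log2 units in Col-0 (log2 fold change −0.26, SE 0.13, adjusted p = 0.585 from limma). *IAA27*, also known as PHYTOCHROME-ASSOCIATED PROTEIN 2, was higher on both, at 9.66 and 9.47 in *bli-1* against 9.37 and 9.35 in Col-0 (0.20, SE 0.13, adjusted p = 0.643 from limma). The gap between replicates was smaller than these differences in both genes, which ran in opposite directions.

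The group of *IAA10* to *IAA13* includes *IAA12* (*BODENLOS*), which with the factor MONOPTEROS sets the embryonic root. *IAA12* was at 9.53 and 9.79 in *bli-1*, against 9.86 and 9.99 in Col-0, so the genotypes did not overlap (log2 fold change −0.27, SE 0.15, adjusted p = 0.623 from limma). *IAA11* was lower by 0.22 on average, and its closest arrays were 9.04 in *bli-1* replicate 2 and 9.06 in Col-0 replicate 2. *IAA10* (0.06) and *IAA13* (−0.05) overlapped, and the second probe of *IAA13* was not well above background on any array.

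Among *IAA18*, *IAA26* and *IAA28*, the *bli-1* replicates disagreed most for *IAA28*, which is expressed in roots and acts in lateral root founder cells. *IAA28* was at 10.84 and 9.98 log2 units in *bli-1*, against 10.42 and 10.32 in Col-0. The first *bli-1* array was above both Col-0 arrays and the second below both, which gave a mean difference of 0.04 with an SE of 0.31. Set against Col-0 alone, replicate 1 gave 0.47 and replicate 2 gave −0.39. This gap of 0.86 was the widest between *bli-1* replicates among the 33 genes, on the arrays where the root markers also differed. *IAA26* (0.26) and *IAA18* (−0.10) overlapped between genotypes, and 1 of the 3 probes of *IAA18* had the opposite sign.

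The repressors *IAA20*, *IAA30*, *IAA31*, *IAA33* and *IAA34* lack the usual degron or hold a changed form of it, so that their turnover responds little to auxin. Their intensities lay near the dim end of the arrays, with none above 7.75 log2 units on any array. *IAA34* was at 7.04 and 7.75 in *bli-1*, against 6.64 and 6.85 in Col-0 (log2 fold change 0.65, SE 0.27, interval −0.04 to 1.35, adjusted p = 0.526 from limma). *IAA33* was at 6.60 and 7.22 in *bli-1*, against 6.59 and 6.57 in Col-0 (0.33, SE 0.23). Neither gene overlapped between genotypes, but most of each difference came from *bli-1* replicate 2, without which the values were 0.32 and 0.02.

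*IAA30* was at 6.53 and 6.07 in *bli-1*, against 6.70 and 6.67 in Col-0, with *bli-1* replicate 2 the lowest of the arrays and 1 *bli-1* array not well above background (−0.38, SE 0.19). *IAA20* (−0.24) was likewise lowest on *bli-1* replicate 2 and overlapped between genotypes. *IAA31* was lower on both *bli-1* arrays, at 6.77 and 6.61 against 6.91 and 6.99 in Col-0 (−0.26, SE 0.13). Before any normalization, *bli-1* replicate 2, the array with raised negative controls, was instead the brightest for *IAA30*, *IAA20* and *IAA31*. Their intensities were 33 and 53, 39.5 and 75.5, and 49 and 143 in *bli-1*. In Col-0 they were 36 and 40, 35 and 36, and 45 and 62.5. The part of normalization in the lower values was not tested. For the dim genes of this group the size also depended on the background correction. Over the 16 alternatives *IAA30* ranged from −2.35 to −0.16 and *IAA34* from 0.32 to 2.05. The sign of *IAA20* and *IAA31* turned under scaling of the scanner software's own corrected signal to the 75th percentile, to 0.10 and 0.13.

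Of the 7 conjugating GH3 genes, 5 had a positive and 2 a negative log2 fold change, with a median of 0.24, or 0.32 without *GH3.4*, which was not well above background in Col-0. It was 0.15 without *bli-1* replicate 2 and 0.15 without Col-0 replicate 2. The 26 Aux/IAA genes were split at 13 and 13, with a median of 0.02. Under the 75th percentile scaling of the scanner software's signal, which moved the median of all loci by 0.19, all 7 GH3 genes were positive, and the GH3 median was 0.42 and the Aux/IAA median −0.10 relative to all loci. In the values as reported, these medians relative to all loci were 0.24 and 0.02. None of the 7 was called or reached 1.5-fold.

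*GH3.5* (AT4G27260), whose enzyme conjugates both auxin and salicylic acid, was at 8.73 and 8.51 log2 units in *bli-1*, against 7.93 and 8.29 in Col-0. Both mutant arrays were above both wild-type arrays, the nearest of them by less than the gap between the Col-0 replicates (0.36). The log2 fold change was 0.51 (SE 0.18, interval 0.04 to 0.98, unadjusted p = 0.0394 and adjusted p = 0.457 from limma), and its 2 probes gave 0.52 and 0.50. *GH3.3* was at 9.74 and 10.37 in *bli-1*, against 9.98 and 9.21 in Col-0. These genotypes overlapped, with a gap of 0.77 between the Col-0 arrays, and the difference of 0.46 had an SE of 0.34.

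*GH3.6*, known as DWARF IN LIGHT 1, was higher on both *bli-1* arrays (10.90 and 10.86, against 10.50 and 10.81 in Col-0), by 0.22 with an SE of 0.16. *GH3.17*, whose enzyme prefers glutamate and acts on hypocotyl elongation, was at 11.51 and 10.93 in *bli-1*, against 10.85 and 10.80 in Col-0. The genotypes did not overlap, and replicate 1 carried most of the difference of 0.39 (SE 0.22), since without it the value was 0.10. *GH3.2* was above both Col-0 arrays on *bli-1* replicate 2 (7.56) and below them on replicate 1 (6.81), against 7.02 and 6.87 in Col-0.

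The 2 GH3 genes with negative values lay at the dim end as well. *GH3.1* was at 6.73 and 6.22 in *bli-1*, against 6.64 and 6.70 in Col-0, and the genotypes overlapped (−0.19, SE 0.20). Before normalization its intensity was 44.5 and 82 in *bli-1*, against 34 and 41 in Col-0, so *bli-1* replicate 2 was the brightest array there. *GH3.4* was well above background on 1 *bli-1* array and on 0 Col-0 arrays, so that no fold change is given. Its intensity before normalization was 22 and 71 in *bli-1*, against 23 and 23 in Col-0, next to the raised negative controls of *bli-1* replicate 2.

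The *bli-1* replicates were further apart than the Col-0 replicates for 24 of the 33 genes (72.7%), against 67.7% of all loci. The median gap was 0.26 log2 units between *bli-1* replicates and 0.10 between Col-0 replicates, against 0.21 and 0.11 over all loci. *bli-1* replicate 2 was the higher of the pair for 20 genes (60.6%), against 48.5% of all loci, among them *IAA1*, *IAA3*, *IAA5*, *IAA6*, *IAA19*, *IAA33*, *IAA34*, *GH3.2* and *GH3.3*, each by 0.48 to 0.75. It was the lower by 0.44 to 0.86 for *IAA20*, *IAA28*, *IAA30*, *GH3.1* and *GH3.17*. The part of slide, of the dim end and of root markers in these gaps was not tested.

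The number of members called depended on which *bli-1* array was used and on when the other was left out. Without *bli-1* replicate 1, limma called 6 of the 33 (18.2%), against 14.0% of all loci, namely *IAA5*, *IAA6*, *IAA19*, *IAA29* and *IAA34* higher and *IAA30* lower. With the slide as a block it called 8 (24.2%), against 15.7% of all loci, with *IAA33* and *GH3.2* in addition. In both, *bli-1* is in effect represented by 1 array, which is assumed to vary like the Col-0 arrays. Without *bli-1* replicate 2, 0 members and 0 loci were called, and *IAA6*, *IAA19* and *GH3.17* were at least 1.5-fold higher at an unadjusted p below 0.05, with log2 fold changes of 0.96, 0.75 and 0.69. When that array was left out only after normalization over all 4, these 3 genes were called (9.09% of the members, against 7.14% of all loci), with adjusted p of 0.0111 for *IAA6* and 0.0272 for *IAA19* from limma. With *bli-1* replicate 1 left out in the same way, the log2 fold changes of the members were those of the slide block. Among them were 1.58 for *IAA6*, 1.24 for *IAA19*, 1.16 for *IAA29* and 1.01 for *IAA34*. *IAA6* and *IAA19* passed that unadjusted threshold under all 16 alternatives, *IAA29* under 14 and each other member under at most 3. With arrays left out after normalization, *IAA19* missed it without Col-0 replicate 2 (0.90, unadjusted p = 0.0502 from limma), and *IAA29* passed it without *bli-1* replicate 2 (0.80, unadjusted p = 0.00746 from limma). Over these alternatives *IAA6* ranged from 0.96 to 1.72, *IAA19* from 0.75 to 1.24 and *IAA29* from 0.76 to 1.53.

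**Figure D3:**
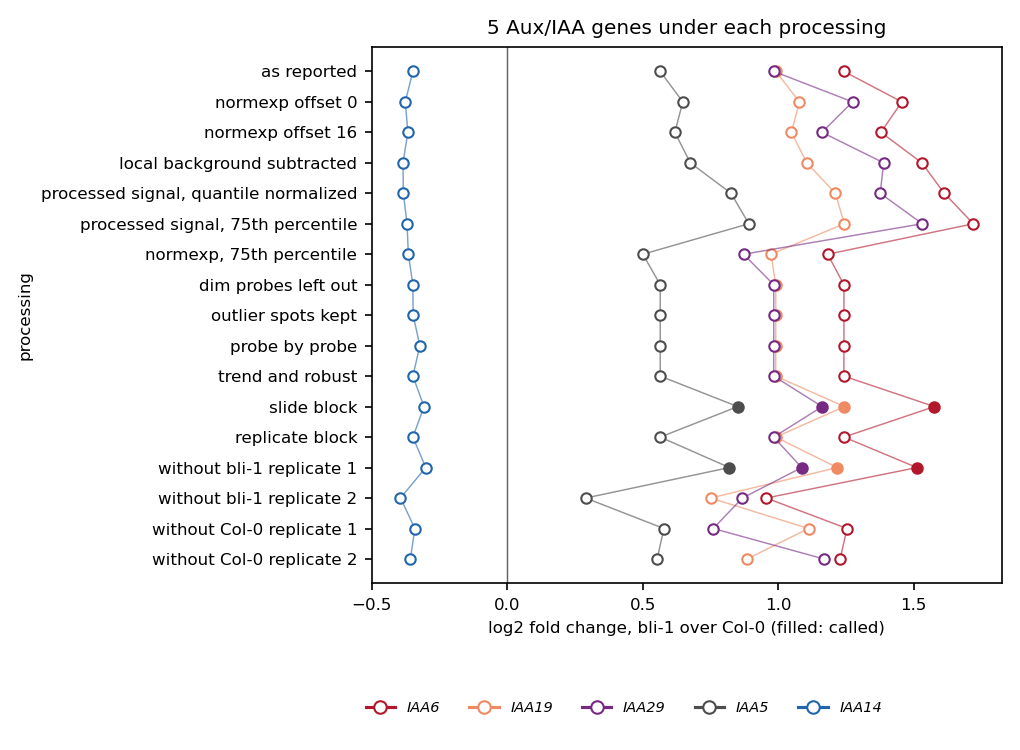
Log2 fold change of *bli-1* over Col-0 for 5 Aux/IAA genes, as reported (top) and under each of 16 other ways of processing, with filled points where the gene was called. *IAA6*, *IAA19* and *IAA29* stay between 0.75 and 1.72 throughout and are called where replicate 1 of *bli-1* was left out or slide was a block, and *IAA14* stays near −0.35.

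The other steps of the auxin pathway were described from lists of known genes. The 6 receptor genes of the TIR1/AFB family had log2 fold changes of −0.19 to 0.04. Of these, 5 overlapped between genotypes, as did 13499 of the 25410 loci. The 15 *ARF* genes ranged from −0.33 to 0.43 with a median of −0.03, and the 14 biosynthesis genes of the TAA and YUCCA families had a median of 0.02. In each of these 3 lists, 0 genes were called and 0 passed the unadjusted threshold with 1.5-fold. With the slide as a block, 3 of the 14 biosynthesis genes were called (15.7% of all loci), and 2 without *bli-1* replicate 1 (14.0% of all loci). Of 15 *SAUR* genes, which are also early auxin genes and in part near-identical copies whose signals may not be separable, 0 were called and 0 passed the unadjusted threshold with 1.5-fold (median −0.08, 6 positive and 9 negative). Here the medians of the *bli-1* arrays ran in opposite directions from the Col-0 mean, but the Col-0 arrays differed as well. Replicate 2 had the higher *SAUR* mean in both genotypes (10.07 and 10.47 log2 units in *bli-1*, 10.27 and 10.52 in Col-0). Col-0 replicate 1 minus Col-0 replicate 2 had a median of −0.26. The *SAUR* median was −0.34 without *bli-1* replicate 2, with 13 of 15 negative, and 0.12 without *bli-1* replicate 1. It was −0.24 without Col-0 replicate 1 and 0.08 without Col-0 replicate 2. With the slide as a block 2 *SAUR* genes were called, and 1 without *bli-1* replicate 1. None was called or passed the unadjusted threshold with 1.5-fold among 7 auxin-responsive transcription factor genes and 4 further GH3 genes that are not members. The transcription factor genes ranged from −0.85 to 0.22 (median −0.01), and the further GH3 genes had a median of −0.11. Without *bli-1* replicate 1 these medians were −0.19 and −0.18, and without *bli-1* replicate 2 they were 0.01 and −0.12.

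Most auxin transport genes had lower values in *bli-1*. Of 14 genes for PIN, AUX1/LAX and ABCB carriers, 12 had a negative log2 fold change and 10 lay below Col-0 without overlap, against 24.1% of all loci, with a median of −0.32. None was called, and 2 were at least 1.5-fold lower at an unadjusted p below 0.05 (14.3% of the list, against 2.98% of all loci). Without *bli-1* replicate 1, so that replicate 2 alone stood for *bli-1*, the transport median was −0.34 and the root marker median −0.84. *PIN4*, an efflux carrier, was at 9.67 and 9.82 in *bli-1*, against 10.28 and 10.58 in Col-0 (log2 fold change −0.69, SE 0.16, adjusted p = 0.275 from limma). Both mutant arrays were below both wild-type arrays. Without *bli-1* replicate 2, on which the median of the root markers was low, *PIN4* was at −0.76. The transport median was then −0.23, with 12 of 14 negative, and the root marker median 0.01. *PIN4* thus kept its size without that array, whereas the list median moved toward 0.

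A list of 4 hydrolases that release auxin from its amino acid conjugates and of the loci AT1G14120 and AT1G14130 had 6 of 6 positive values, 5 of them without overlap against 22.8% of all loci, and a median of 0.36. *IAR3*, a hydrolase that acts opposite to the GH3 enzymes, was at 9.88 and 9.69 in *bli-1*, against 9.20 and 9.18 in Col-0 (0.60, SE 0.13, adjusted p = 0.259 from limma). AT1G14120 was at 11.12 and 10.48 in *bli-1*, against 9.85 and 9.91 in Col-0 (0.92, SE 0.24, adjusted p = 0.317 from limma). Both genes lay apart from Col-0 on both mutant arrays, and 0 of the 6 were called. At an unadjusted p below 0.05, 2 of the 6 were at least 1.5-fold higher (33.3%, against 3.01% of all loci). Without *bli-1* replicate 2, AT1G14120 was at 1.24 and *IAR3* at 0.70, and without *bli-1* replicate 1 they were at 0.59 and 0.49. Among the root markers, 10 of 12 were negative with a median of −0.34, which was 0.01 without *bli-1* replicate 2. The 7 markers of photosynthetic tissue went both ways, from −0.82 to 0.39 with a median of 0.06, which was −0.06 without *bli-1* replicate 2 and 0.21 without *bli-1* replicate 1. The lowest was *RCA*, for Rubisco activase, at 13.06 and 13.35 in *bli-1*, against 14.08 and 13.97 in Col-0 (−0.82, SE 0.16, adjusted p = 0.208 from limma). The 9 probes of *RCA* shared this sign but differed in size, from −1.17 to −0.27.

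**Figure D4:**
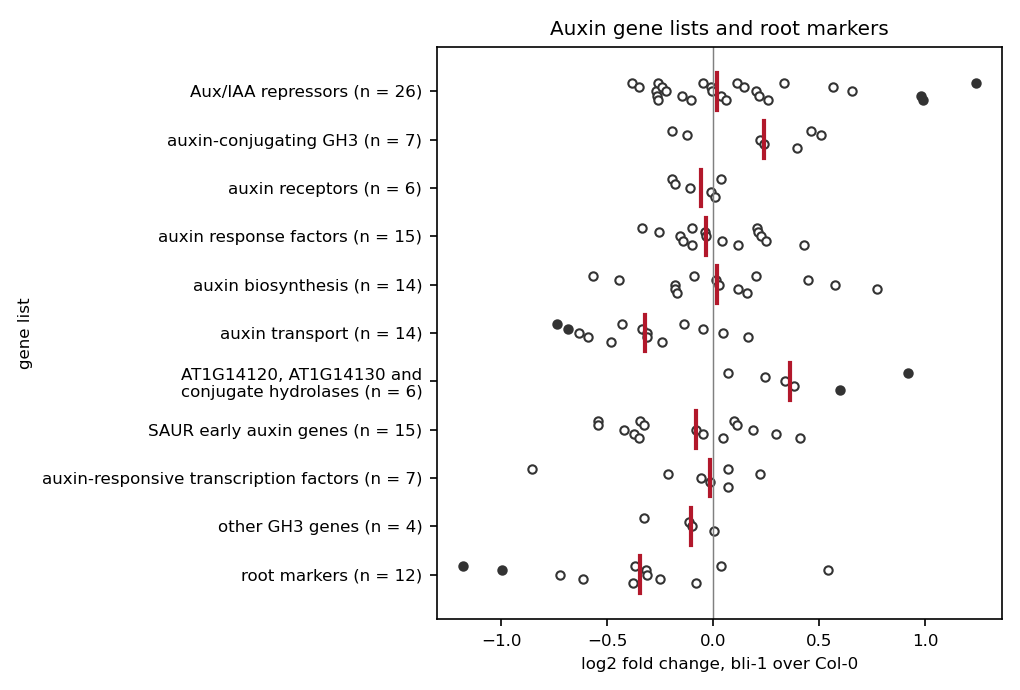
Log2 fold change of *bli-1* over Col-0 for each tested gene of 10 auxin gene lists and of the root markers, with red bars at the list medians and filled points for genes at least 1.5-fold changed at an unadjusted p below 0.05. The Aux/IAA list is centred near 0 with 3 filled points to the right, transport lies mostly to the left of 0 and the list of AT1G14120, AT1G14130 and the conjugate hydrolases to the right.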

How the data were processed

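Cy3-labelled RNA of whole seedlings was put on Agilent arrays of 1 color, 2 for *bli-1* and 2 for Col-0. The authors deposited, for each array, the median intensity of each spot and of its local background, with the scanner software's own corrected signal intensity, all without normalization between arrays. The paper names background correction, quantile normalization and limma but neither the correction method nor an offset.

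Intensities were corrected here with normexp (offset 50) in limma 3.58.1 under R 4.3.3. Control spots were dropped, the 4 to 19 outlier spots of an array became missing values, and quantile normalization was done on the log2 scale. Values were averaged over spots and over probes, which were named through RefSeq accessions (34432 of 35703 spots matched). lmFit and eBayes compared the genotypes, with Benjamini-Hochberg adjustment over 34290 genes and transcripts. This offset shrinks the fold changes of dim genes, and for some of them the direction depended on the processing as well. Over the 16 alternatives *IAA20* ranged from −1.61 to 0.10, *IAA31* from −0.80 to 0.13 and *GH3.1* from −1.49 to 0.42. Precision is limited by having 4 arrays. Labels do not say whether replicates came from separate sowings, so p-values may measure technical spread only.

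Members and lists were chosen with earlier results of these data known. All 33 matched members were named, and from each further auxin list at most 3 genes in each direction that passed an unadjusted p below 0.05 and 1.5-fold. The values of 1 transport gene are not reported here. Alternatives changed the background correction, scaling, dim probe and outlier filters, probe averaging, eBayes options and blocks, or left out each array before normalization. After the values were seen, arrays were also left out after normalization. Probe sequences and coordinates were not used here. The symbols of 2 listed loci (*CLV2* and *SAUR68*) were corrected after the files were read. Markers of shoot apex and flower were fixed as well. Their medians were 0.17 and 0.48 over 4 genes each. The shoot apex markers ranged from −0.12 to 0.60. All 4 flower markers were positive, 3 of them without overlap against 22.8% of all loci, and 2 were well above background on all 4 arrays. The highest was *PI* (log2 fold change 1.22, SE 0.13, adjusted p = 0.0823 from limma). The part of tissue or stage in these values was not tested.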

Additional observations from a re-analysis of the deposited data

How the results depend on the processing

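Over 16 alternatives, 12 members stayed higher and 7 stayed lower in *bli-1*, and 14 changed sign in at least 1. The number of members called was 0, but 8 with the slide as a block. The number past an unadjusted p was 3 (9.09%, against 5.99% of loci), but 9 with the slide as a block (27.3%, against 16.2% of loci) and 4 with the scanner software's signal at the 75th percentile (12.1%, against 6.49%). With each array left out in turn, members called ran from 0 to 6, members past an unadjusted p from 2 to 7, and loci called from 0 to 3551. When an array was left out after normalization over all 4, a choice made after seeing the data, these ranges were 0 to 8, 2 to 9 and 0 to 3987. Without *bli-1* replicate 2 this order of steps called 3 members (*IAA6*, *IAA19* and *GH3.17*), 5 past an unadjusted p, and 1815 loci, where leaving it out first called 0 and 0, with 3 past an unadjusted p. The cause was not tested.

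Against 34 loci called as reported, 0 were called with offset 0, local subtraction, either use of the scanner software's signal, 75th percentile scaling after normexp, or the replicate block, 9 with offset 16, 99 without dim probes, 104 with trend and robust options and 3987 with the slide block. The scanner software's signal at the 75th percentile gave a GH3 median of 0.60, and 69.9% of loci past an unadjusted p were higher there, against 50.3% as reported. Replicate numbers pair nothing in the labels, and deviations of same-numbered arrays correlated at 0.11 over loci. The replicate block called 0 members, with 4 past an unadjusted p (12.1%, against 6.54% of loci), and left the Aux/IAA and GH3 medians at 0.02 and 0.24.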
